A study of Mus musculus with 26 samples.

Results

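The genes described here encode the cytosolic translation elongation factors of the mouse, together with a kinase of eEF2 and the class I release factor. They were taken from a named list of 9 gene symbols: Eef1a1, Eef1a2, Eef1b2, Eef1d, Eef1g, Eef2, Eef2k, Eif5a and Etf1. All 9 were measured in each table, among 8576 transcripts in each of the transgenic tables and 9561 in the LRRK2 KO table. Ribosome footprinting, which sequences the mRNA fragments covered by ribosomes, and RNA-Seq of total RNA depleted of rRNA were performed on the caudate putamen, labelled as striatum. GS LRRK2 TG mice carried LRRK2 with the G2019S substitution, a mutation of Parkinson's disease that raises kinase activity. GS/DA LRRK2 TG mice carried G2019S with D1994A, which inactivates the kinase. Both transgenes were of the Tet-off type, driven by CaMKII-tTA, which is active in forebrain neurons, came from high-copy lines, and were induced by withdrawing doxycycline chow after weaning. Both transgenic comparisons draw their non-TG controls, which have a wild-type genotype, from the same 3 footprinting and 3 RNA-Seq libraries in the labels. Which of these each control mean holds is not stated, and the control means given with GS/DA LRRK2 TG resolved into 2 libraries per assay. LRRK2 KO mice were compared with WT mice. All groups are labelled C57BL/6 and 3 months old, and each lysate pooled tissue from several mice of both sexes. No group carried the tTA driver alone, so the driver and the LRRK2 transgene cannot be told apart. Each transgene came from its own line, so kinase activity and line cannot be told apart either.

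During elongation, eEF1A bound to GTP brings each aminoacyl-tRNA to the ribosome, and the eEF1B complex, made of the products of Eef1b2, Eef1d and Eef1g, exchanges its GDP for GTP. eEF2 then moves the ribosome along the mRNA until eRF1, the product of Etf1, reads the stop codon, while eIF5A, which carries the amino acid hypusine, helps at slow peptide bonds and at termination. Phosphorylation of eEF2 by eEF2 kinase, which calcium and calmodulin activate, slows elongation, and mature neurons use Eef1a2 beside Eef1a1.

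The labels were first checked on Lrrk2 itself, with the authors' group means of normalized reads in the coding sequence (CDS). Lrrk2 footprints averaged 545 in WT mice and 126 in LRRK2 KO mice, which is a log2 change of -2.12, and Lrrk2 RNA-Seq reads averaged 1006 and 347 (log2 change -1.54). In GS LRRK2 TG mice Lrrk2 footprints averaged 5186, against 2524 in their control (log2 change 1.04). GS/DA LRRK2 TG mice had 6017, against 1335 (log2 change 2.17). The RNA-Seq means of Lrrk2 did not set the transgenic groups above their controls, with log2 changes of -0.16 and -0.09 in the same order. The controls differed too. That of GS LRRK2 TG had more Lrrk2 footprints than that of GS/DA LRRK2 TG but fewer RNA-Seq reads, 2105 beside 2897. Footprints of each listed gene were fewer in the former, as for Eef1a1 with 28076 beside 35716. The tables were normalized separately, and the reason for this difference was not tested.

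Markers of striatal projection neurons were present, with 11 of 11 listed genes in each table, and Ppp1r1b, the gene of DARPP-32, had the most footprints among them. Their summed footprinting means were 103216 in GS LRRK2 TG beside 111673 in the non-TG control (log2 change -0.11), 121195 beside 149430 in the GS/DA LRRK2 TG comparison (-0.30), and 33302 in LRRK2 KO beside 32160 in WT (0.05). Markers of cortical projection neurons were set farther apart between groups. Of 5 listed genes, 3 were in the transgenic tables, led by Slc17a7, and their summed footprints were 3339 in GS/DA LRRK2 TG beside 1343 in the control, a log2 change of 1.31, with 3 of 3 higher. For GS LRRK2 TG the same sum was 1366, beside 1612 in the control (log2 change -0.24), and in RNA-Seq 1071 beside 1851 (log2 change -0.79). In the LRRK2 KO table all 5 were listed and summed to 2258 footprints in LRRK2 KO beside 2410 in WT (log2 change -0.09).

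In footprinting, glial markers were closer to their controls than those of choroid plexus and blood. Oligodendrocyte markers, 6 of 6 in each table, summed to 56191 footprints in GS LRRK2 TG beside 49951 in the control (log2 change 0.17), with log2 changes of 0.01 for GS/DA LRRK2 TG mice and 0.00 for LRRK2 KO mice. The 6 astrocyte markers, led by Aldoc, had log2 changes of 0.07, 0.08 and -0.02 in summed footprints in the same order, and 5 of 6 microglial markers, led by Csf1r (Aif1 was not in the tables), had 0.10, 0.12 and 0.20. Of 6 genes of choroid plexus, vessels and blood, 3 were in each table, led by Hba-a2, with log2 changes of -0.41, -0.66 and -0.64. The vessel markers Cldn5, Pecam1 and Flt1 were in none. Of the 3 measured genes, 0, 0 and 1 had more footprints than in the control, in the same order. Hba-a2 itself had 6592 footprints in GS LRRK2 TG beside 6640 in the control. In RNA-Seq the changes were -0.03, -0.37 and -0.23 for choroid plexus and blood and 0.14, 0.17 and 0.28 for microglia. The part of these mixtures of cells in the values below was not tested, and in tissue, fewer cells of a type and less RNA per cell cannot be told apart.

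Each table gives only 1 mean per group and assay. A mean of 2 libraries, each divided by its own size factor, is a sum of whole multiples of 2 steps, and for 10 of 12 columns the reads of both libraries could be recovered, for 98.81% to 99.88% of transcripts. The control means given with GS LRRK2 TG could not be split, so that comparison has no spread between its controls. The recovered libraries carry no replicate number and are named by their depth within a group. In the transgenic tables, footprinting libraries held 7485949 to 19968899 reads in the CDS and RNA-Seq libraries 8692274 to 14468181. In the LRRK2 KO table, footprinting libraries held 2927014 to 6169615 and RNA-Seq libraries 3206695 to 11002453.

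In the median over the elongation factors, footprinting libraries of 1 group were close to each other, whereas RNA-Seq libraries of the transgenic tables were not. The log2 ratio between the higher and the lower footprinting library had a median over the resolved members of 0.22 in GS LRRK2 TG, 0.11 in the non-TG control of the GS/DA LRRK2 TG comparison and 0.23 in GS/DA LRRK2 TG. For RNA-Seq the medians in these groups were 1.35, 1.23 and 1.014, and the largest ratios were 2.13, 1.69 and 2.84, each of them at Etf1. In the LRRK2 KO table the medians were 0.12 in WT and 0.15 in LRRK2 KO for footprinting, and 0.22 and 0.27 for RNA-Seq. The largest ratios there were 0.90 and 0.43 for footprinting, both at Etf1, and 0.97 and 0.89 for RNA-Seq, both at Eif5a. The plot of normalized reads per library shows the members one by one.

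**Figure D1:**
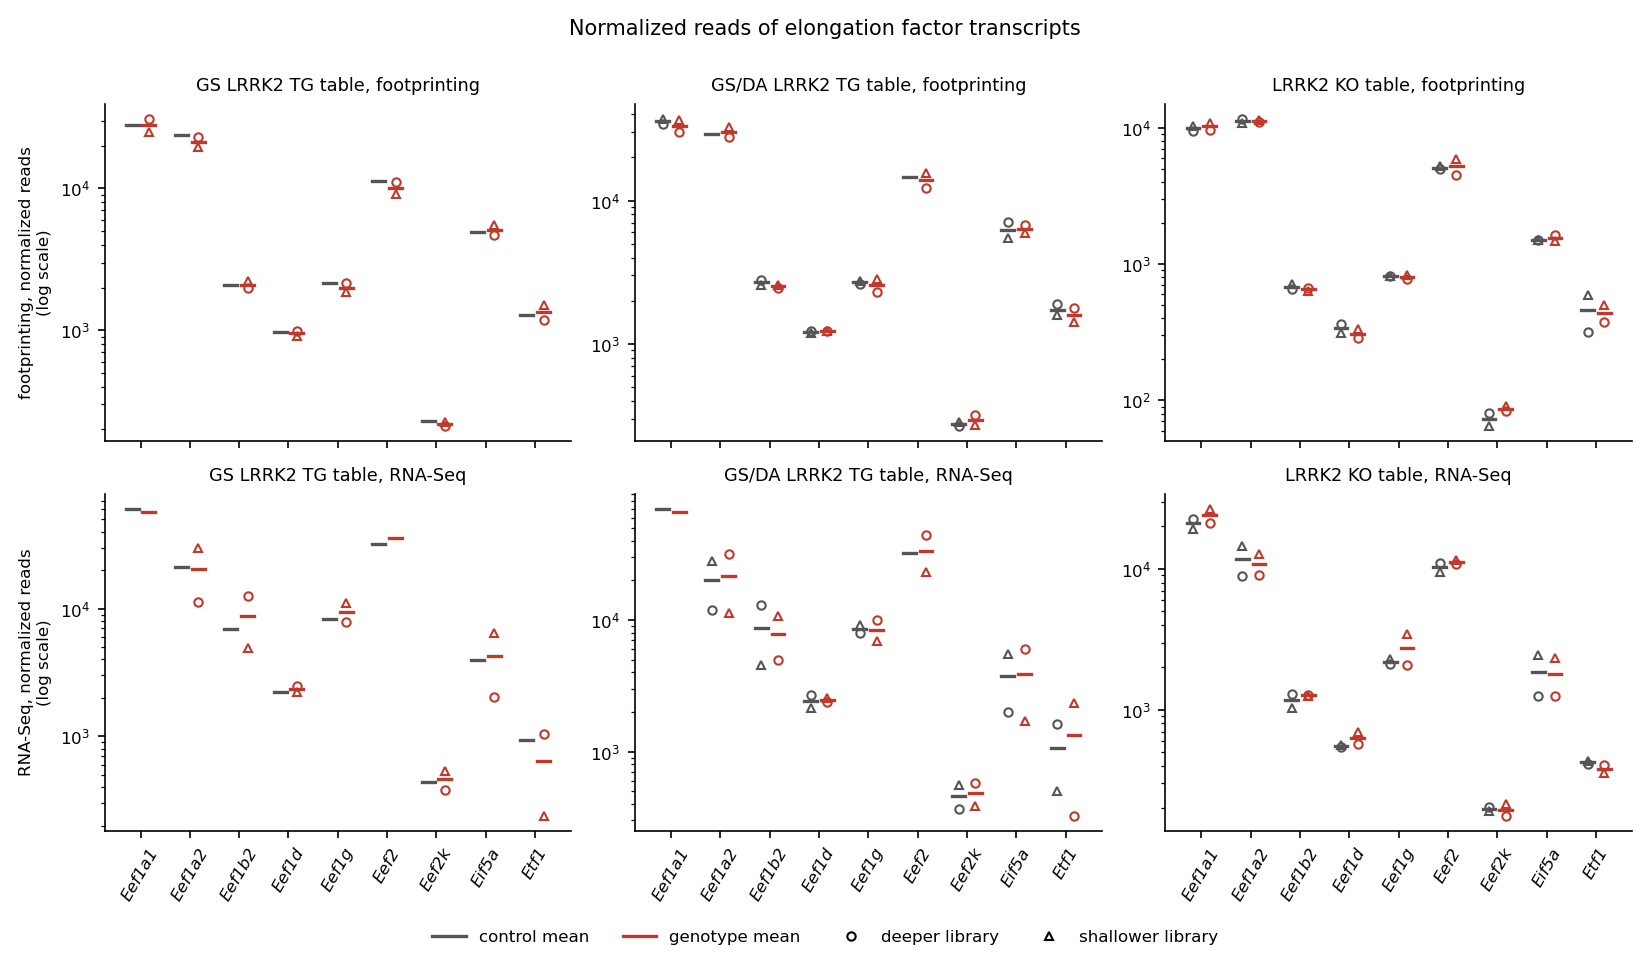
Normalized reads in the CDS of each elongation factor transcript on a log scale, for footprinting in the upper row and RNA-Seq in the lower row, with group means as bars, the deeper library of a group as a circle and the shallower as a triangle (no symbol where a mean did not resolve). RNA-Seq libraries of 1 group lie far apart in the transgenic tables, as for Etf1 in GS/DA LRRK2 TG with 326 and 2342, while its footprinting libraries have 1765 and 1412.

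Levels of different genes were compared per kb of CDS, with all annotated isoforms of a gene merged. Where reads come mainly from a shorter isoform, the level per kb is understated. The merged CDS of Eef1d had 2037 bases, and its isoforms were not compared. In the non-TG control of the GS LRRK2 TG table, Eef1a1 had the highest footprint level at 20257 normalized reads per kb, followed by Eef1a2 with 17197 and Eif5a with 10707. Eef2 had 4415, Eef1b2 2722, Eef1g 1649, Etf1 982, Eef1d 479 and Eef2k 91.3. The members thus ranged from above the 99th percentile of all transcripts (99.4 for Eef1a1) to percentile 9.11 for Eef2k. The order was the same for the controls of GS/DA LRRK2 TG mice. In WT of the LRRK2 KO table, Eef1a2 stood first with 8079 footprints per kb and Eef1a1 second with 7132, and the order of the others was the same. The WT libraries had 8320 and 7839 for Eef1a2 and 6827 and 7437 for Eef1a1, without overlap, and no neighbours in the WT footprint order overlapped.

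RNA-Seq gave another order. Eef1a1 RNA-Seq reads stood at 43562 per kb in the non-TG control of the GS LRRK2 TG table, Eef1a2 at 15160, Eef2 at 12445, Eef1b2 at 9008 and Eif5a at 8648. Eef1g had 6311, Eef1d 1084, Etf1 715 and Eef2k 176. Several neighbours in the order did not differ beyond the libraries. The RNA-Seq libraries of controls for GS/DA LRRK2 TG mice had 16921 and 5988 reads per kb for Eef1b2 and 4315 and 11961 for Eif5a, and Eif5a overlapped Eef1g just as Eef1d overlapped Etf1. In WT, Eif5a with 2716 and 5330 RNA-Seq reads per kb overlapped Eef2 with 4284 and 3683, and Eef1g overlapped Eef1b2.

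Several of these levels are uncertain because the coding sequence has near-identical copies elsewhere. The transcripts listed were uc009qun.1 for Eef1a1, uc008olh.1 for Eef1a2, uc007bfz.2 for Eef1b2, uc007whj.1 for Eef1d, uc008goi.1 for Eef1g, uc007gge.2 for Eef2, uc009jnb.1 for Eef2k, uc007jsq.2 for Eif5a and uc008elu.1 for Etf1. Every run of 28 bases of each CDS was searched in the whole mouse genome (NCBIM37, the same assembly as mm9). For Eef1a1 (chr9:78326256-78336958, minus strand), 1221 of 1362 such runs, or 89.6%, occurred outside the gene, over 23 loci. The locus with the most was the pseudogene Gm13456 (chr2:40411272-40412636) with 906. For Eef1g (chr19:9041531-9052969, plus strand), 95.9% occurred elsewhere, 1147 of them at chr7:123968024-123969337, where no gene is annotated. The share was 46.1% for Eif5a (chr11:69730216-69735460, minus strand), most of it at the pseudogene Eif5al3-ps, 32.1% for Eef2 (chr10:80639376-80645252, plus strand), 26.1% for Eef1b2 (chr1:63223399-63227060, plus strand) and 19.5% for Eef1d (chr15:75725226-75739986, minus strand). For Eef1a2 (chr2:180882358-180891719, minus strand) it was 3 of 1365 runs, and no run of Eef2k (chr7:127986345-128050733, plus strand) or of Etf1 was found elsewhere. How reads with more than 1 match were assigned is not given in the sources used here, so the levels of Eef1a1 and Eef1g in particular may hold or lack reads of other loci.

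The genes of both eEF1A forms, in contrast, share no identical run of 28 bases in the CDS, and neither do any other members. The longest stretch that Eef1a1 and Eef1a2 have in common is 23 bases, shown here in capitals within the 28 bases from CDS position 302 to 329, since no longer fragment fits both without a mismatch. Alignments with a mismatch, which the study allowed, were not compared. The 28 bases lie over an exon junction in both genes, in the minus strand of mm9 at chr9:78328048-78328070 and chr9:78327951-78327955 for Eef1a1 and at chr2:180888356-180888378 and chr2:180887781-180887785 for Eef1a2.
Eef1a1: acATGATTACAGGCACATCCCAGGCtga
Eef1a2: atATGATTACAGGCACATCCCAGGCgga

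TE, the log2 ratio of the footprinting mean to the RNA-Seq mean, split the members in the control mice. In the non-TG control of the GS LRRK2 TG table, Eef1g had a TE of -1.94, Eef1b2 -1.73, Eef2 -1.50, Eef1d -1.18, Eef1a1 -1.10 and Eef2k -0.95, all below the median of all transcripts of -0.17. Eef1a2 with 0.18, Eif5a with 0.31 and Etf1 with 0.46 lay above it. The same 3 members lay above the table median in the control of the other tables too, with 0.55, 0.73 and 0.71 against a median of 0.04 in the GS/DA LRRK2 TG comparison, and with -0.07, -0.31 and 0.11 against -0.64 in WT of the LRRK2 KO table. For members with near-identical copies, Eef1g and Eef1a1 above all, TE may depend on how each assay's reads with more than 1 match were assigned. That was not tested. These TE values of group means also move with 1 RNA-Seq library. In the GS/DA LRRK2 TG control, RNA-Seq libraries held 11985 and 28064 for Eef1a2 and 1611 and 500 for Etf1. In WT they held 1255 and 2462 for Eif5a, and with the latter alone its TE lies below -0.64. For comparison, 73 ribosomal protein genes, whose mRNAs like those of several elongation factors are known to begin with a terminal oligopyrimidine tract, had a median control TE of -1.47 and -1.20 in the transgenic tables and of -1.22 in the LRRK2 KO table. The tables were normalized separately, so TE values are set against the median of their own table.

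**Figure D2:**
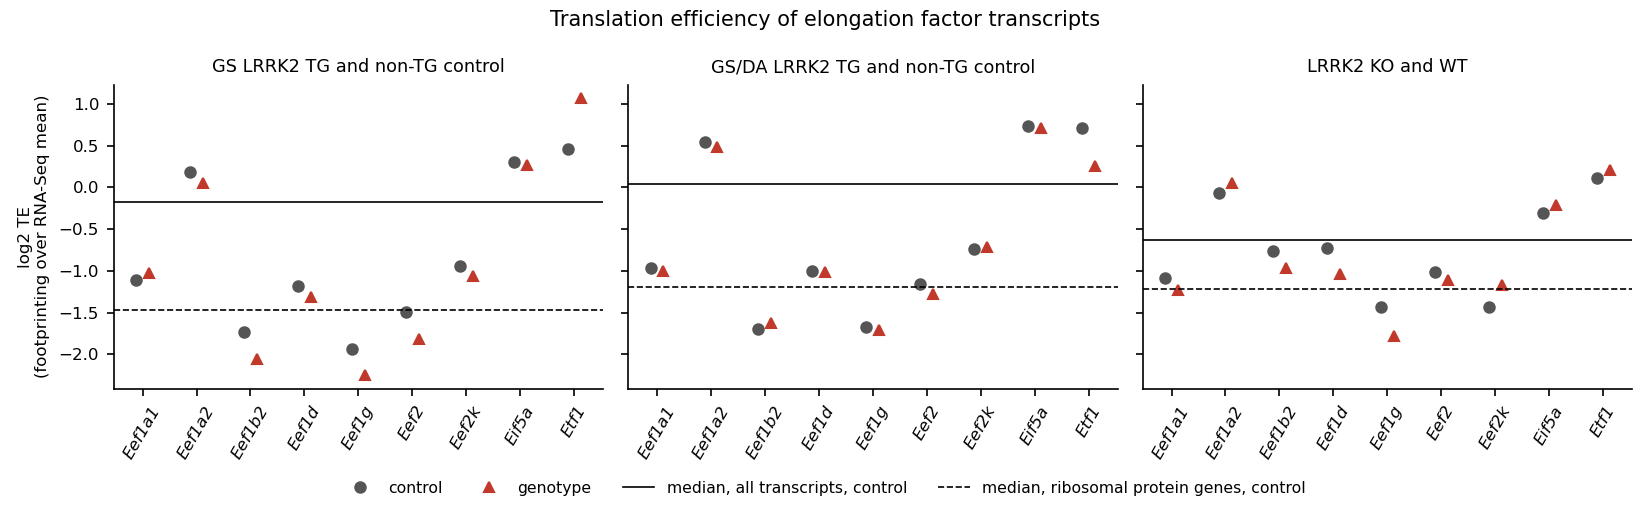
TE of each elongation factor transcript as log2 of the footprinting mean over the RNA-Seq mean, with control groups as circles, the genotype as triangles, and the control medians of all transcripts (solid line) and of ribosomal protein genes (dashed line). By group means, Eef1a2, Eif5a and Etf1 lie above the median of all transcripts in every control group, and the other 6 members lie below it. The spread between RNA-Seq libraries is not shown, as for Eif5a in WT with 1255 and 2462.

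The predicted folding energy of the 5′UTR, deposited in kcal/mol with lower values for more stable folds, differed among the members. It was -147.2 for Eef1b2, -144.4 for Eif5a, -135.14 for Eef1a2 and -128.2 for Eef2k, against a median of -91.15 over all transcripts of the transgenic tables. Etf1 had -78.8, Eef1g -44.8, Eef1d -42.7, Eef1a1 -40.57 and Eef2 -25.1. The genes of eEF1A thus stand on opposite sides of the median, and so do the genes of the eEF1B subunits.

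The comparison of GS LRRK2 TG with non-TG control asks how translation differs with an active mutant kinase. Changes are log2 ratios of group means, and a z score places each among all transcripts of the table, with the study's cutoff of 1.5 in either direction. In footprinting, 0 of 9 members passed the cutoff, against 8.69% of all transcripts, and their changes ran from -0.17 to 0.07. In RNA-Seq, 2 of 9 passed, Eef1b2 above and Etf1 below, against 11.2% of all transcripts (3.74% above and 7.44% below). In TE 4 of 9 passed, against 11.9%. Those in TE were Etf1 above and Eef1b2, Eef2 and Eef1g below, where 8.01% of all transcripts lay above and 3.91% below. The median change of the 9 members was -0.03 in footprinting, 0.09 in RNA-Seq and -0.13 in TE, beside 0.00, -0.02 and 0.02 for all transcripts and -0.02, 0.11 and -0.14 for ribosomal protein genes. Single libraries moved the medians, to -0.06 in RNA-Seq and -0.05 in TE without the shallower RNA-Seq library of GS LRRK2 TG, and to 0.29 and -0.34 without the deeper. The counts moved as well. Without the shallower RNA-Seq library of GS LRRK2 TG, 0 of the 7 members still resolved passed the cutoff in RNA-Seq and 0 in TE, and without the deeper 1 passed in each. The cutoff itself widened with a single RNA-Seq library in the group. Its upper side in RNA-Seq was at a log2 change of 0.26 with both libraries, 1.03 without the shallower and 1.25 without the deeper. A lost call there can therefore go with a larger change, as for Eef1b2 RNA-Seq with 0.86 without the shallower library. Without the shallower footprinting library 1 of 9 passed in TE. No test was run here, because the control means of this table did not resolve into libraries and the tables were normalized separately.

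GS/DA LRRK2 TG mice, compared with the same kind of control, bear on whether a difference needs kinase activity, within the limit of 1 line per transgene. In footprinting 0 of 9 members passed the cutoff (7.53% of all transcripts), in RNA-Seq 0 of 9 (10.3%), and in TE 1 of 9, Etf1 on the lower side (11% of all transcripts in either direction, 7.36% lower). The count in TE was 0 without the deeper footprinting or the shallower RNA-Seq library of the control, and without the shallower library of GS/DA LRRK2 TG in either assay. Without that RNA-Seq library, 1 of 8 members passed in RNA-Seq. The median change of the members was -0.06 in footprinting, 0.05 in RNA-Seq and -0.03 in TE, beside -0.01, 0.06 and -0.05 for all transcripts and -0.15, -0.07 and -0.07 for ribosomal protein genes, of which 72 of 73 were below 0 and 5 past the cutoff downward in footprinting. The members' medians had either sign with 1 library left out. They were -0.29 in RNA-Seq and 0.31 in TE without the deeper transgenic RNA-Seq library, and 0.28 and -0.26 without the shallower.

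LRRK2 KO against WT asks what the loss of LRRK2 changes. The count past the cutoff was 0 of 9 in footprinting (10.1% of all transcripts), 0 of 9 in RNA-Seq (10.9%) and 0 of 9 in TE (12.3%). It became 1 in RNA-Seq without the shallower WT or the deeper LRRK2 KO RNA-Seq library, and 1 in TE without the latter. The members' median change was 0.00 in footprinting, 0.12 in RNA-Seq and -0.10 in TE, beside 0.02, 0.01 and 0.02 for all transcripts. Ribosomal protein genes had medians of 0.00, 0.26 and -0.27 here, with 19 of 73 past the cutoff upward in RNA-Seq and 13 downward in TE. The members' median RNA-Seq change was -0.07 without the shallower LRRK2 KO RNA-Seq library, where their median TE change was 0.03. Without the deeper WT RNA-Seq library the TE median was -0.21.

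**Figure D3:**
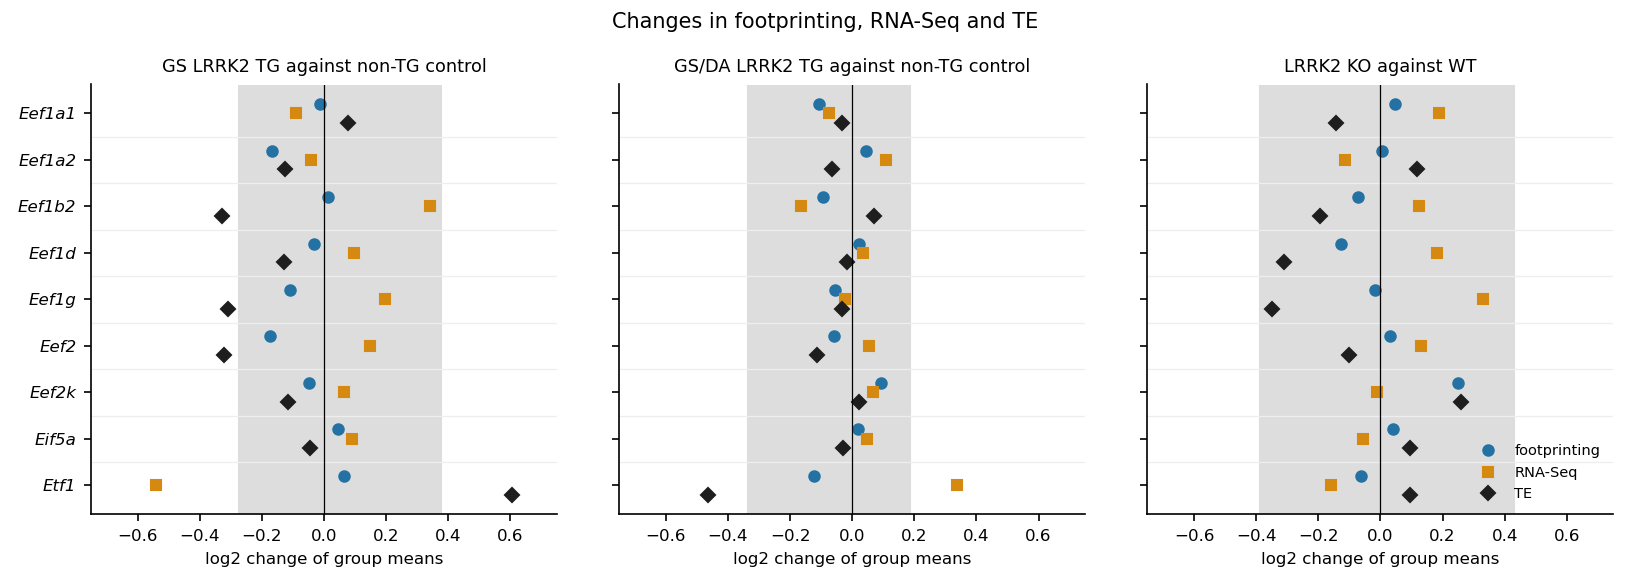
Log2 change of the group means in footprinting (circles), RNA-Seq (squares) and TE (diamonds) for each member, genotype over control, with the range of TE changes within a z score of 1.5 shaded grey. Diamonds outside the grey range are Etf1, Eef1b2, Eef2 and Eef1g for GS LRRK2 TG and Etf1 for GS/DA LRRK2 TG, and the LRRK2 KO panel has none.

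The genes of eEF1A, which delivers aminoacyl-tRNA, lay within the cutoff in each measure of the 3 comparisons. Eef1a1 footprints averaged 27852 in GS LRRK2 TG (libraries 30854 and 24849) and 28076 in the control, a log2 change of -0.01. GS/DA LRRK2 TG libraries had 29987 and 36287 Eef1a1 footprints, against 34397 and 37034 in the control (log2 change -0.11). LRRK2 KO libraries had 9649 and 10765, against 9462 and 10307 in WT (log2 change 0.05). The groups overlapped in both tables with resolved controls. Eef1a1 RNA-Seq changes were -0.09 and -0.08 in the transgenic comparisons, in that order, and 0.19 for LRRK2 KO, and TE changes 0.08, -0.03 and -0.14.

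Eef1a2, the form of mature neurons and muscle, had footprint means of 21255 in GS LRRK2 TG and 23887 in the control, a log2 change of -0.17 (libraries 23024 and 19487). Its other footprint changes were 0.04 for GS/DA LRRK2 TG, with 27962 and 32329 in the transgenic libraries around a control mean of 29254, and 0.00 for LRRK2 KO, with 11082 and 11438 against 11556 and 10888 in WT. The RNA-Seq libraries lay much farther apart than the groups. GS/DA LRRK2 TG had 31785 and 11371 normalized RNA-Seq reads and its control 11985 and 28064, so that each group had a high and a low library and the log2 change of the means was 0.11. In GS LRRK2 TG they held 11295 and 29610 around a control mean of 21057. TE changes of Eef1a2 were -0.13, -0.06 and 0.12 in the 3 comparisons.

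Of the eEF1B subunits, Eef1b2 encodes a nucleotide exchange subunit, Eef1d encodes the other, and Eef1g a subunit that anchors the complex. Eef1b2 RNA-Seq averaged 8712 in GS LRRK2 TG and 6873 in the control, a log2 change of 0.34 (z 1.91), but its libraries held 12514 and 4911, on either side of the control mean. Its footprints averaged 2097 and 2077, with libraries of 1985 and 2208. The TE change of -0.33 (z -1.75) was 0.50 without the deeper RNA-Seq library, when the RNA-Seq change was -0.49. The direction for Eef1b2 thus rested on 1 library.

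Between GS/DA LRRK2 TG and control, Eef1b2 footprints were the only ones of a member whose libraries did not overlap, with 2469 and 2568 in the transgenic mice and 2792 and 2589 in the control. That is 1 of 7 resolved members, against 24.3% of all transcripts, and the smallest gap between the groups was narrower than the spread within either of them. The RNA-Seq libraries of Eef1b2 held 4926 and 10650 in the transgenic mice and 12911 and 4569 in the control, and of the 7 members resolved in RNA-Seq, 0 had groups without overlap (3.37% of all transcripts). For LRRK2 KO, log2 changes of the Eef1b2 means were -0.07 in footprinting, 0.12 in RNA-Seq and -0.19 in TE.

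Eef1g RNA-Seq averaged 9488 in GS LRRK2 TG, with libraries of 7917 and 11059, and 8274 in the control, a log2 change of 0.20, and its TE change was -0.31 (z -1.66). Leaving out any of the 4 GS LRRK2 TG libraries in turn gave TE changes of -0.53 to -0.05 for Eef1g. For GS/DA LRRK2 TG the Eef1g means were near the control, with log2 changes of -0.06 in footprinting, -0.02 in RNA-Seq and -0.03 in TE. For LRRK2 KO, RNA-Seq libraries of Eef1g had 2086 and 3436, against 2111 and 2281 in WT, a log2 change of 0.33 that lay in 1 of the LRRK2 KO libraries. Between the deeper libraries the change was -0.02 and between the shallower ones 0.59. The footprint libraries of Eef1g held 778 and 831 in LRRK2 KO and 815 and 813 in WT, and the TE change of the means was -0.35 (z -1.35).

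Eef1d TE changes were -0.13 and -0.02 in the GS and GS/DA LRRK2 TG comparisons and -0.31 for LRRK2 KO (z -1.22). In the LRRK2 KO table its RNA-Seq libraries did not overlap, with 548 and 565 in WT beside 573 and 691 in LRRK2 KO, which holds for 2 of 9 members in RNA-Seq (the other is Etf1, on the lower side) against 14.1% of all transcripts. Its footprints had 361 and 313 in WT beside 286 and 332 in LRRK2 KO. Eef1d footprints of GS/DA LRRK2 TG and control were the most even among the resolved members, with 1221 and 1224 in the transgenic mice and 1228 and 1182 in the control.

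Eef2, the translocase, averaged 10075 footprints in GS LRRK2 TG, with libraries of 11066 and 9084, and 11365 in the control, a log2 change of -0.17. Its RNA-Seq means were 35485 and 32034 (log2 change 0.15), and its TE change was -0.32 (z -1.72). The TE change of Eef2 was -0.19 without the shallower and -0.47 without the deeper footprinting library, and its RNA-Seq libraries did not resolve in that table. For GS/DA LRRK2 TG the TE change of Eef2 was -0.11, with transgenic footprint libraries of 12277 and 15517 around a control mean of 14473. In LRRK2 KO, Eef2 footprint libraries had 4482 and 5925 and those of WT 4995 and 5195, so that the LRRK2 KO libraries lay on both sides of WT, and the TE change was -0.10.

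Eef2k, the kinase that phosphorylates eEF2, was the least abundant member. Its footprint means were 220 in GS LRRK2 TG and 228 in the control (log2 change -0.05), and GS/DA LRRK2 TG libraries had 318 and 271, against 269 and 284 in the control (0.09). For LRRK2 KO, Eef2k footprints had libraries of 82.8 and 90.9, above the 81.0 and 65.3 of WT, a log2 change of 0.25 (z 1.19). It was the only 1 of 9 members without overlap in footprinting there, against 12.6% of all transcripts. Before normalization these libraries held only 121 and 65 Eef2k reads in LRRK2 KO beside 104 and 49 in WT. Eef2k RNA-Seq libraries had 203 and 191 in WT beside 177 and 213 in LRRK2 KO, and the log2 change was -0.01.

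Eif5a, the gene of the hypusine-bearing factor, had log2 footprint changes of 0.04 and 0.02 in the GS and GS/DA LRRK2 TG comparisons and 0.04 for LRRK2 KO. Its footprint libraries had 7044 and 5451 in the control of GS/DA LRRK2 TG mice, which had 6734 and 5925, and 1624 and 1463 in LRRK2 KO against 1511 and 1491 in WT. The RNA-Seq libraries again formed a high and a low one in each resolved group of the transgenic tables, with 6049 and 1720 for GS/DA LRRK2 TG, 1993 and 5526 for its control, and 2044 and 6466 in GS LRRK2 TG. The RNA-Seq means nevertheless gave log2 changes of 0.09 and 0.05. In the LRRK2 KO table the RNA-Seq libraries had 1255 and 2462 in WT beside 1253 and 2324 in LRRK2 KO. TE changes of Eif5a were -0.05, -0.03 and 0.10.

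Etf1, which encodes the release factor eRF1 and lies on chromosome 18, had the largest changes in RNA-Seq and TE of all members in both transgenic comparisons, in opposite directions. Etf1 RNA-Seq reads averaged 644 in GS LRRK2 TG beside 938 in the control, a log2 change of -0.54 (z -2.39), and its TE change was 0.61 (z 2.57). For GS/DA LRRK2 TG the RNA-Seq means were 1334 and 1056 (log2 change 0.34) and the TE change was -0.46 (z -2.23). The footprint changes were 0.07 and -0.12. The difference between the transgenic comparisons was not tested.

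The recovered RNA-Seq libraries of Etf1 spanned far more than the groups. GS LRRK2 TG had 1049 and 239, GS/DA LRRK2 TG 326 and 2342, and the control of the latter 1611 and 500. Every resolved group of the transgenic tables thus had a high and a low library. Without the shallower GS LRRK2 TG RNA-Seq library the RNA-Seq change of Etf1 was 0.16 and the TE change -0.10, and without single libraries of GS/DA LRRK2 TG or its control the TE change ranged from -1.54 to 1.57. The Etf1 footprint libraries had 1183 and 1513 in GS LRRK2 TG, 1765 and 1412 in GS/DA LRRK2 TG, and 1888 and 1576 in the control of the latter.

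For LRRK2 KO, Etf1 had log2 changes of -0.06 in footprinting, -0.16 in RNA-Seq and 0.09 in TE. Its RNA-Seq libraries did not overlap, with 412 and 432 in WT beside 403 and 353 in LRRK2 KO. The footprint libraries were 318 and 594 in WT, the widest footprinting pair of any member in that table, and the 372 and 501 of LRRK2 KO lay between them.

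The wide RNA-Seq differences were shared between genotypes. Over 8508 transcripts measured in GS/DA LRRK2 TG, the log2 ratio between both control libraries and that between both transgenic libraries had a Spearman rho of 0.977 once the deeper control library was matched with the shallower transgenic library. This is a description across genes, which are not independent replicates. The SD of these log2 ratios for RNA-Seq was 1.42 in the control and 1.68 in GS/DA LRRK2 TG, and 0.258 and 0.272 for footprinting. In the LRRK2 KO table it was 0.648 and 0.574 for RNA-Seq and 0.652 and 0.636 for footprinting.

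Within RNA-Seq libraries matched in this way, the Etf1 change for GS/DA LRRK2 TG was 0.54 in the pair with more Etf1 reads and -0.62 in the other. In the same order the changes were -0.28 and 0.11 for Eef1b2, -0.21 and 0.13 for Eif5a, and -0.08 and 0.18 for Eef1a2. Members differed in which library of a pair was higher. Etf1, whose CDS has the lowest GC content of the members at 40.9%, and Eef1b2, with 47.5%, were higher in the library that matches the deeper control library, by log2 ratios of 2.84 and 1.11 in the transgenic mice. In the same mice Eif5a with 50.1%, Eef1g with 52.6%, Eef2k with 55.9%, Eef1a2 with 56.8% and Eef2 with 57.3% were lower in it, with log2 ratios of -1.81, -0.54, -0.59, -1.48 and -0.92. Eef1d, with the highest GC content of 59.3%, had a log2 ratio of 0.09, so the ratios did not follow the order of GC content throughout. GC content was taken from the longest CDS of each gene, 1983 bases for Eef1d, and shorter isoforms were not examined. The part of base composition in these ratios was not tested.

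limma was fitted to recovered normalized reads on the log2 scale, with genotype, assay and their interaction over 8 libraries per table, for 8430 transcripts in the GS/DA LRRK2 TG comparison (6 members resolved in all 4 groups) and 9532 in the LRRK2 KO comparison (9 members). Each transcript had 1 residual error for both assays in this fit. The footprint errors thus include RNA-Seq, whose log2 ratios between control libraries of GS/DA LRRK2 TG had an SD of 1.42, against 0.258 in footprinting. A fit of footprints alone was not run. At a Benjamini-Hochberg adjusted p of 0.05, limma called 0 transcripts for GS/DA LRRK2 TG in footprinting, RNA-Seq and TE, and at an unadjusted p under 0.05 it called 3 (0.0356%), 2 (0.0237%) and 0. For LRRK2 KO limma called 0 in each, and 17 (0.178%), 9 (0.0944%) and 4 (0.042%) at an unadjusted p under 0.05. With matched libraries as a block, a matching taken from the data, limma called 5 transcripts in footprinting (0.0525%), 4 in RNA-Seq (0.042%) and 0 in TE for LRRK2 KO at an adjusted p of 0.05, beside 217, 463 and 186 unadjusted below 0.05. For GS/DA LRRK2 TG that limma fit called 0 in each, and 281, 389 and 34 at an unadjusted p under 0.05. The opposite matching as a block gave 0 in each in limma for LRRK2 KO, with 6, 5 and 0 at an unadjusted p under 0.05. No member passed even the unadjusted threshold of 0.05 in any of these fits, with 0 of 6 and 0 of 9.

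Without a block, the errors were wide beside the changes. limma gave Etf1 a TE change of -0.10 with an SE of 1.40 for GS/DA LRRK2 TG (adjusted p = 1), since it averages log2 values of libraries and not the reads. With matched libraries as a block, limma gave the same change an SE of 0.36 (adjusted p = 1). The smallest unadjusted p among the members in that table was 0.815 without the block and 0.499 with it, both for Eef2k footprints (adjusted p = 1 in limma). Without the block, limma gave Eef2k an SE of 0.35 in footprinting and in RNA-Seq alike. Its library SDs in log2 were 0.06 in the control and 0.16 in GS/DA LRRK2 TG for footprinting, against 0.43 and 0.42 for RNA-Seq. The p-values for footprints thus rest partly on the RNA-Seq spread. For LRRK2 KO, limma gave Eef1g an RNA-Seq change of 0.29 with an SE of 0.28, Eef1d a TE change of -0.30 with an SE of 0.31, and Eef2k a footprint change of 0.23 with an SE of 0.22 (adjusted p = 1 for each). No change of these members passed the threshold in either fit, which does not show that the levels were alike, and the p-values measure only the spread between libraries of pooled tissue.

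Other genes of the elongation machinery were described by lists of symbols, with group means only and no values of single libraries. For termination, ribosome rescue and remaining elongation factors, 8 of 10 listed genes were in the transgenic tables and 9 of 10 in the LRRK2 KO table. Abce1, the ATPase that recycles ribosomes after termination, had values like those of Etf1 in the transgenic comparisons. Its log2 changes were -0.59 in RNA-Seq and 0.64 in TE for GS LRRK2 TG and 0.48 and -0.50 for GS/DA LRRK2 TG. Its footprints changed by 0.05 and -0.02 there. For Etf1 such RNA-Seq and TE changes reversed with 1 RNA-Seq library left out. Whether those of Abce1 do so is not shown, and a link between these genes was not tested. For LRRK2 KO, Abce1 had 0.23 in footprinting and 0.39 in TE, where Etf1 had -0.06 and 0.09. Gtpbp2, a GTPase of ribosome rescue, had a footprint change of 0.32 and a TE change of 0.20 for GS/DA LRRK2 TG. Apart from these, 0 of the measured genes of the list passed a z of 1.5 in any comparison, where 7.53% to 12.3% of all transcripts passed in a measure, and Eef1e1, with the highest level per kb of CDS, had TE changes of -0.04, -0.01 and 0.08.

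Enzymes that modify elongation or release factors included those that make diphthamide on eEF2, hypusine on eIF5A, and methylation of eEF1A and eRF1. Of 19 listed, 13 were measured in each table. For GS LRRK2 TG, 2 of 13 lay past the cutoff below in footprinting, beside 8.69% of all transcripts in either direction. In RNA-Seq 2 lay below, beside 7.44% of all transcripts below. In TE 2 lay above and 2 below, beside 8.01% of all transcripts above and 3.91% below. Those in footprinting were Dohh with -0.32 and Dph2 with -0.27. Dohh, which completes hypusine, also had a TE change of -0.36, and Mettl13, a methyltransferase of eEF1A, a TE change of -0.30. N6amt1, the methyltransferase of eRF1, had 0.45 in TE and -0.37 in RNA-Seq, and Dph5 0.38 and -0.37.

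For GS/DA LRRK2 TG, 2 of the 13 modifying enzymes lay below the cutoff in TE, where 7.36% of all transcripts lay below. They were Dnajc24 with -0.35 and Jmjd4, the lysyl hydroxylase of eRF1, which falls outside the 8 genes named per list and was added once its value was known. In footprinting and RNA-Seq 0 did. For LRRK2 KO, 3 of 13 lay past the cutoff below in footprinting, beside 10.1% of all transcripts in either direction. They were Dph2 with -0.34, from a mean of 72.4 in WT to 57.4, Wdr85 with -0.33, and Trmt112, the partner of N6amt1 with the highest level per kb of the list, with -0.29. The list was not tested. Dph5 had -0.62 in RNA-Seq and 0.54 in TE there, from low RNA-Seq means of 84.4 in WT and 54.8 in LRRK2 KO. In either direction 10.9% of all transcripts passed the cutoff in RNA-Seq and 12.3% in TE. The list's median footprint change for LRRK2 KO was -0.12, beside 0.02 for all transcripts.

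Of 13 genes that act on eEF2 kinase, 12 were measured in each table. In GS LRRK2 TG, Calm3 had a log2 change of 0.31 in RNA-Seq and -0.31 in TE, and Rps6ka1, which encodes the kinase RSK1, 0.35 in RNA-Seq, where 3.74% of all transcripts lay above the cutoff in RNA-Seq and 3.91% below it in TE. In GS/DA LRRK2 TG only Prkab2, a subunit of AMPK, lay past the cutoff, with 0.41 in footprinting (7.53% of all transcripts in either direction). In LRRK2 KO, Prkab1, another subunit of AMPK, had -0.55 in RNA-Seq (10.9% of all transcripts in either direction). Calm2, with the highest level per kb of the list, had footprint changes of 0.06, -0.12 and 0.04.

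Mitochondrial elongation and release factors, 5 of 7 in the transgenic tables and 7 of 7 in the LRRK2 KO table, lay within the cutoff apart from Tsfm, the exchange factor of mitochondrial EF-Tu, with -0.22 in RNA-Seq for GS/DA LRRK2 TG (z -1.50), where 10.3% of all transcripts passed. Tufm, which encodes EF-Tu itself and had the highest level per kb of the list, had TE changes of -0.05, -0.10 and 0.30. No list had more than 3 genes past the cutoff in 1 direction of a measure.

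Transcripts with the most similar values were found by the Euclidean distance over 6 log2 changes, footprinting and RNA-Seq in 3 comparisons, each minus the median of its table, among 1675 transcripts whose means all reached 500. Both transgenic comparisons draw their controls from the same 3 libraries per assay, so these changes may not be independent. Nearest to Eef1a1 were Rpl4 with a distance of 0.0868, Klhl2 with 0.103 and Mark2 with 0.103, where the median transcript had 0.421. Nearest to Eef1a2 were Pcbp1 with 0.0862, Crmp1 with 0.0962 and Slc12a5 with 0.104 (median 0.347). For Eef2, Kdm4b with 0.128 and Gnb2l1 with 0.129 were among the nearest 3 (median 0.429).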

How the data were processed

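Per the labels and the methods, the authors processed reads with CASAVA 1.8, aligned them to mm9 with TopHat2 2.0.11 and Bowtie2 2.2.2, counted reads in the CDS, discarded transcripts with few reads, and deposited group means normalized with DESeq 1.20, a signal without an SD. The authors also deposited a predicted 5′UTR folding energy (kcal/mol). Their log2 TE, TE difference and z score columns hold the authors' own comparison and were not used. The third striatal footprinting libraries of WT and LRRK2 KO and the ventral midbrain libraries were not used here. TE was recomputed with a pseudocount of 0, and z from each table's mean and SD of all changes. Library reads were recovered from the means, which was tested on simulated data. limma 3.58.1 in R 4.3.3 used log2 of normalized reads with a pseudocount of 10 and Benjamini-Hochberg adjustment. CDS lengths came from NCBIM37 and matched 97.2% and 97.0% of transcripts in the transgenic and LRRK2 KO tables. Named genes of a list have a z of at least 1.5 in size in any measure, at most 8 per list, or the highest control level per kb of CDS. Members and lists were chosen with earlier results of these data known. Alternatives were other pseudocounts, filters, z definitions and cutoffs, median centring, means of log2 values, blocks of matched libraries, and leaving out each library. The analysis used Python 3.11.15 with numpy 2.4.6, pandas 2.3.3 and scipy 1.17.1. Some genes that the rule names are not reported here.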

Additional observations from a re-analysis of the deposited data

How the results depend on the processing

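No paired analysis was possible from labels because the columns carry no replicate numbers, and the matched libraries below were paired from the data. Published read depths per replicate were not used to number them, and limma had no term for footprinting and RNA-Seq of the same lysate. Values of single genes were compared by the typical SD between libraries in log2, which is wide in the transgenic tables. For RNA-Seq it was 0.95 with GS LRRK2 TG, 0.79 with GS/DA LRRK2 TG and 0.17 in the LRRK2 KO table, and for footprinting 0.16, 0.15 and 0.10. Of the alternative values of single genes, 760 lay within this SD of the reported one, 88 of them with another sign, 85 moved beyond it, and 6 of values past the cutoff reversed. This SD is too wide a measure for medians over the members, several of which changed sign with 1 library left out. The cause was not tested. The reversals followed from 1 RNA-Seq library left out. They were Eef1b2 in GS LRRK2 TG without the deeper library, with -0.49 in RNA-Seq and 0.50 in TE (0.86 and -0.85 without the shallower), and Etf1 without the shallower, with 0.16 and -0.10 (-1.97 and 2.04 without the deeper). The others were the TE of Etf1 in the GS/DA LRRK2 TG table, with 0.15 without the shallower control library and 1.57 without the shallower transgenic library (range -1.54 to 1.57).

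Members past the cutoff for GS LRRK2 TG were 1 in footprinting with z from the median and scaled MAD and 2 with a cutoff of 1, and 1 in RNA-Seq and 1 in TE with a cutoff of 2. For GS/DA LRRK2 TG they were 1 in RNA-Seq with means of at least 500, 1 with the MAD and 2 with a cutoff of 1, and 0 in TE with means of log2 values. For LRRK2 KO they were 1 in RNA-Seq with a pseudocount of 10, 1 in RNA-Seq and 1 in TE with means of at least 500, and 1 in footprinting, 1 in RNA-Seq and 2 in TE with a cutoff of 1. Leaving out each library gave 0 to 2 in RNA-Seq and 0 to 3 in TE for GS LRRK2 TG, and 0 to 1 in RNA-Seq and in TE in the other comparisons. The members' median RNA-Seq change for LRRK2 KO ranged from -0.065 to 0.18 with 1 library left out, and was -0.025 in the matched deeper libraries alone and 0.29 in the matched shallower ones, a setting chosen after seeing the data.

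With matched libraries as a block, limma called 5 transcripts in footprinting and 4 in RNA-Seq for LRRK2 KO at an adjusted p under 0.05, and none of the members, and with the opposite matching limma called 0 in both, with 6 and 5 at an unadjusted p under 0.05. The matching was chosen from the data, not from labels. Every limma fit took 1 residual error per transcript for both assays. No member passed an unadjusted p of 0.05 in any limma setting. In limma without 1 library, the lone library of its group was assumed to vary like the other groups. Depth limits the footprints of Eef2k, with 49 to 121 reads per library in the LRRK2 KO table, and GS LRRK2 TG has no spread between controls.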
